A study of Mus musculus with 12 samples.

Results

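The caspase family was examined in C26 tumours, where 7 caspase genes were measured by 9 probe sets with a single gene symbol: Casp1, Casp4 and Casp12 of the inflammatory group, and Casp2, Casp6, Casp8 and Casp9 of the apoptotic group. These are 7 of 12393 genes, and 9 of 20380 probe sets, that carried 1 symbol. The probe sets were taken by gene symbol. C26 is a mouse colon carcinoma line, grown here under the skin of the flank of Balb/c mice aged 6 weeks. The 12 tumours came from 3 groups of 4 mice: mice given CP-Dox, which is doxorubicin carried by a chimeric polypeptide, mice given free doxorubicin (Dox), and mice given phosphate-buffered saline (PBS). All mice carried the same line and were treated on day 8 after inoculation, when tumours measured about 50 mm3, and the tumours were taken 48 h later. Each tumour was hybridized to its own Affymetrix array. No tumours given the carrier alone were analysed here, so the drug and the carrier cannot be told apart in CP-Dox. Doses are not stated in the labels.

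Caspases are cysteine proteases that cut proteins after aspartate and are made as inactive precursors. Apoptotic caspases dismantle a dying cell: initiators such as caspase-8, caspase-9 and caspase-2 are activated on protein platforms, and executioners such as caspase-6 cut structural proteins. Inflammatory caspases are activated by inflammasomes or by bacterial lipopolysaccharide, and they process interleukin precursors and open gasdermin D pores in the membrane. Their transcripts are known to be induced by interferons in macrophages. Levels of mRNA do not show whether a caspase protein was cleaved into its active form.

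All values are the authors' RMA signals on a log2 scale, where a difference of 1 is a 2-fold change. Differences are given ± the standard error of a limma fit over all 12 arrays and 12393 genes, and rose or fell is written only for a Benjamini-Hochberg adjusted p under 0.05. One array stood apart from its group: CP-Dox replicate 2 correlated with the rest of its group at r = 0.948 on average, where the other 11 arrays reached 0.971 to 0.990 within their own groups. Results that rest on it are therefore given with and without it. The mean of 12 skeletal muscle markers, relative to the PBS mean, was -0.42, 0.82, 2.00 and 2.21 in CP-Dox replicates 1 to 4. It was -2.83, 1.89, -2.86 and -2.83 in Dox replicates 1 to 4, and -2.80, -2.94, 3.82 and 1.92 in PBS. The tumours of a group thus differed in muscle signal, and its part in the caspase values was not tested. Of the 11 colon epithelial genes measured, the simple-epithelium keratin genes Krt8 and Krt18 were at 9.17 to 12.05 and 5.74 to 10.33. Epcam was at 5.29 to 7.87, Cdh1 at 5.27 to 7.88, Cldn3 at 6.65 to 7.11 and Krt20 at 4.49 to 6.56. Cdx1, Cdx2 and Vil1, which mark intestinal epithelium, were at 4.01 to 5.44 in every array, and Krt19 and Lgals4 were at 4.61 to 5.48. The table holds no detection calls, so whether Cdx1, Cdx2 and Vil1 were expressed is not shown.

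The inflammatory caspase genes were higher in 3 of the 4 CP-Dox tumours than in every PBS tumour, and in CP-Dox replicate 2 they lay below all PBS tumours, for Casp4 by a margin under 0.01. The mean differences of the apoptotic caspase genes between CP-Dox and PBS were smaller, -0.05 to 0.32, than the 0.82 to 0.96 of the inflammatory genes. With all 12 arrays, none of the 7 genes passed the threshold in CP-Dox against PBS (limma, adjusted p from 0.182 to 0.840), where 5.58% of all genes did. Among the 7, only Casp4 had an unadjusted p under 0.05. Without CP-Dox replicate 2, Casp1, Casp4 and Casp12 rose and none of the apoptotic genes passed, in a fit that called 19.1% of all genes. Whether the responses of the inflammatory and apoptotic groups differed was not tested. In whole tumours, fewer cells of a type and less RNA per cell cannot be told apart.

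Casp1 encodes the protease of the canonical inflammasome, which matures interleukin-1 beta and interleukin-18. Its log2 signal (probe set 1449265_at) was 11.42, 9.70, 11.55 and 11.42 in CP-Dox replicates 1 to 4, 10.82, 9.63, 10.45 and 10.98 in Dox replicates 1 to 4, and 10.20, 10.37, 10.02 and 10.23 in PBS replicates 1 to 4. CP-Dox replicates 1, 3 and 4 lay above every other array, and replicate 2 of both drug groups lay below every PBS tumour. The difference between CP-Dox and PBS was 0.82 ± 0.39 (1.77-fold; 95% confidence interval of the log2 difference -0.04 to 1.68; limma adjusted p = 0.232). Without CP-Dox replicate 2, Casp1 rose by 1.26 ± 0.26 (2.40-fold; limma adjusted p = 0.00768).

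Casp4 encodes the mouse protein also called caspase-11, the sensor of cytosolic lipopolysaccharide. Its log2 signal (1449591_at) was 10.44, 8.64, 10.17 and 10.39 in CP-Dox replicates 1 to 4, 9.32, 8.08, 9.05 and 9.63 in Dox, and 8.94, 9.02, 8.64 and 9.21 in PBS. The same 3 CP-Dox tumours were above all other arrays, and Dox replicate 2 was the lowest of the 12. CP-Dox and PBS differed by 0.96 ± 0.40 (1.94-fold; 95% confidence interval 0.07 to 1.84; limma adjusted p = 0.182). Without CP-Dox replicate 2, Casp4 rose by 1.38 ± 0.29 (2.60-fold; limma adjusted p = 0.00936).

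Casp12 belongs to the inflammatory group by sequence and position, and its function is less settled than those of its neighbours. It had 2 probe sets. The brighter (1449297_at) was at 10.76, 7.87, 10.73 and 10.49 in CP-Dox replicates 1 to 4, at 9.85, 8.13, 9.26 and 9.39 in Dox, and at 8.93, 8.99, 8.98 and 9.41 in PBS. CP-Dox replicate 2 had the lowest value of all arrays and CP-Dox replicate 1 the highest, a range of 2.89 within 1 treatment group. The groups differed by 0.88 ± 0.58 (limma adjusted p = 0.374), and without CP-Dox replicate 2 Casp12 rose by 1.58 ± 0.31 (2.98-fold; limma adjusted p = 0.00696). The other probe set (1418981_at) gave 10.67, 8.01, 10.70 and 10.41 in CP-Dox, 9.63, 7.84, 9.11 and 9.54 in Dox, and 9.05, 9.15, 8.82 and 9.22 in PBS. Relative to their PBS means, the 2 probe sets never differed by more than 0.27 in an array.

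**Figure D1:**
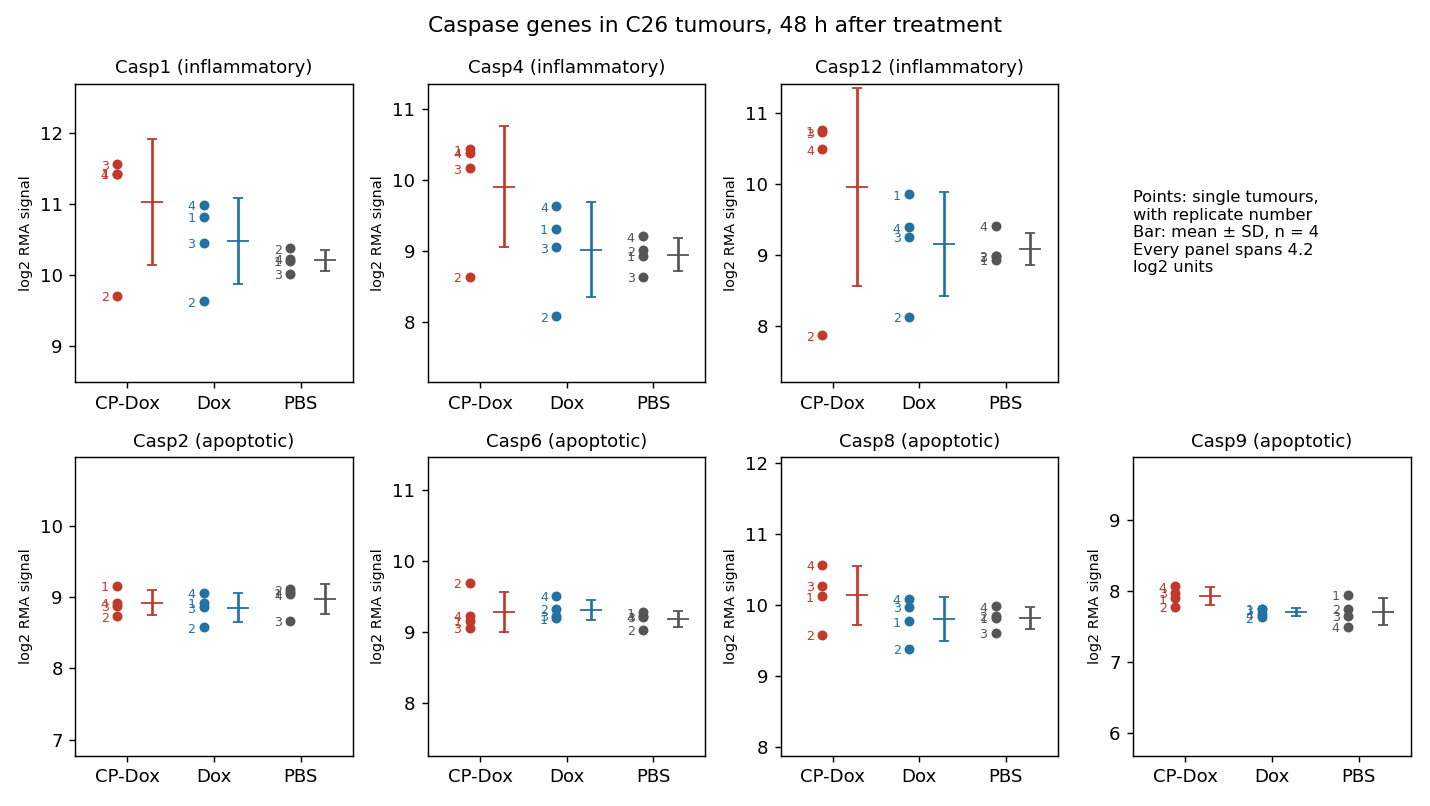
Log2 RMA signal of the 7 caspase genes in every tumour, by group (CP-Dox, Dox, PBS), with the replicate number beside each point and the mean ± SD of 4 tumours as a bar. The 3 inflammatory genes in the upper row spread over 1.93 to 2.89 log2 units across the 12 tumours, while the apoptotic genes in the lower row spread over 0.57 to 1.18.

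The 3 inflammatory genes lie next to each other on chromosome 9, in the order Casp1, Casp4, Casp12, with no other protein-coding gene between them in the RefSeq annotation of GRCm38.p6. The apoptotic genes lie on chromosomes 1 (Casp8), 3 (Casp6), 4 (Casp9) and 6 (Casp2). Promoter windows of 300 bases, from 250 before to 50 after the annotated start, were found in RefSeq for all 7 genes and searched on both strands for the interferon-stimulated response element core (GAAANNGAAA), the gamma-activated sequence core (TTCNNNGAA), the NF-kB site and the p53 decamer. The windows of the 3 inflammatory genes, whose patterns were alike, and of Casp8, the apoptotic gene closest to them in pattern, are shown 5′ to 3′ on the plus strand with motif matches in capitals. Casp4 has a pair of annotated starts, and the window of the upstream one is shown.
Casp1, chr9:5298267-5298566: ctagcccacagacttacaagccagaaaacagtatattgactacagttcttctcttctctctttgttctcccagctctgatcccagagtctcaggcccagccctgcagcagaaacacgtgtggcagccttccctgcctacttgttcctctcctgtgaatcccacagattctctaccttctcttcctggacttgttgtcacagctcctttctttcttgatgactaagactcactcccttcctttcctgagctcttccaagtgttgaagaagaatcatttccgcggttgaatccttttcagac
Casp4, chr9:5308599-5308898: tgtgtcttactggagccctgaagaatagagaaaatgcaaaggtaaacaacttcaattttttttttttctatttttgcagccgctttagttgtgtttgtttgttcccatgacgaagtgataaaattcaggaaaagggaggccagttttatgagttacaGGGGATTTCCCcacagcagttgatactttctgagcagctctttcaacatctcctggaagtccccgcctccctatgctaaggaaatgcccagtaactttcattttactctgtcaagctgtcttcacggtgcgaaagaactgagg
Casp12, chr9:5345226-5345525: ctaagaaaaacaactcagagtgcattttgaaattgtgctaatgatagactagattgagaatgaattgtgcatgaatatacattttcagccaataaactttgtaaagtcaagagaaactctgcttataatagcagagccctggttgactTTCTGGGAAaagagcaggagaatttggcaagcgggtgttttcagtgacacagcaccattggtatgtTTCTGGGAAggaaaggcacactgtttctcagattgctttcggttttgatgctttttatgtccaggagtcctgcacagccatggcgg
Casp8, chr1:58802252-58802551: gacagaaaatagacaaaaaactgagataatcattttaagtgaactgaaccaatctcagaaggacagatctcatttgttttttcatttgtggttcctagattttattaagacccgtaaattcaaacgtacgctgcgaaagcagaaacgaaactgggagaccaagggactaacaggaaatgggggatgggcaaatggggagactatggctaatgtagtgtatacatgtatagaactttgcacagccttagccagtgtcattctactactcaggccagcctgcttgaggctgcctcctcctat

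The Casp12 window held 2 copies of the gamma-activated sequence core with the same letters, TTCTGGGAA, starting 102 and 36 bases before the start. The Casp4 window held 2 overlapping NF-kB matches on 11 bases, the first starting 93 bases before the start. Casp1 and Casp8 had no match to any of the 4 motifs, nor had Casp2, Casp6 and Casp9. Of all 32851 promoter windows, 3.44% held the interferon-stimulated response element core, 8.30% the gamma-activated sequence core, 4.51% an NF-kB site and 8.36% a p53 decamer. A match is a description of letters in this window, and nothing follows from it or from its absence about binding of a factor.

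Casp8 encodes the initiator caspase of death receptors, which also restrains necroptosis. Its log2 signal (1424552_at) was 10.12, 9.58, 10.26 and 10.57 in CP-Dox replicates 1 to 4, 9.77, 9.38, 9.97 and 10.09 in Dox, and 9.82, 9.84, 9.61 and 9.98 in PBS. As for the inflammatory genes, replicate 2 of both drug groups lay below all PBS tumours, and the range over the 12 arrays was 1.18. CP-Dox and PBS differed by 0.32 ± 0.20 (limma adjusted p = 0.356), and by 0.50 ± 0.17 without CP-Dox replicate 2 (1.42-fold; limma adjusted p = 0.0583). The interval of that second difference was 0.13 to 0.88.

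Casp9 encodes the initiator caspase of the apoptosome, the platform that forms when cytochrome c leaves mitochondria. Its brighter probe set (1437537_at) was at 7.89, 7.78, 7.97 and 8.06 in CP-Dox replicates 1 to 4, at 7.74, 7.63, 7.74 and 7.67 in Dox, and at 7.94, 7.75, 7.64 and 7.49 in PBS. All 4 CP-Dox tumours were above all 4 Dox tumours, whereas CP-Dox and PBS overlapped. CP-Dox and PBS differed by 0.22 ± 0.10 (1.16-fold; limma adjusted p = 0.216). The other probe set (1426125_a_at) differed by 0.10 ± 0.13, and relative to the PBS means the 2 probe sets were up to 0.37 apart in 1 array.

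Casp2 encodes an initiator caspase activated on the PIDDosome after DNA damage or extra centrosomes. It was at 9.16, 8.74, 8.88 and 8.92 in CP-Dox replicates 1 to 4 (1448165_at), at 8.92, 8.58, 8.86 and 9.07 in Dox, and at 9.08, 9.12, 8.67 and 9.05 in PBS. The groups overlapped throughout, and CP-Dox and PBS differed by -0.05 ± 0.14 (95% confidence interval -0.35 to 0.25; limma adjusted p = 0.840).

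Casp6 encodes an executioner caspase that cuts lamin A. Its log2 signal (1415995_at) was 9.16, 9.69, 9.06 and 9.23 in CP-Dox replicates 1 to 4, 9.20, 9.33, 9.23 and 9.51 in Dox, and 9.28, 9.03, 9.22 and 9.22 in PBS. Its highest value was that of CP-Dox replicate 2, the tumour in which Casp12 was lowest. CP-Dox and PBS differed by 0.10 ± 0.13 (95% confidence interval -0.19 to 0.39; limma adjusted p = 0.675). The sign turned without CP-Dox replicate 2, at -0.04 ± 0.10 (limma adjusted p = 0.821).

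Taking probe sets in place of genes gave the same count in CP-Dox against PBS: 0 of the 9 passed, where 5.39% of the 20380 probe sets did. Groups without any overlap were found for none of the 7 genes, against 12.1% of all genes. Without CP-Dox replicate 2, the remaining 3 CP-Dox tumours lay above all 4 PBS tumours for Casp1, Casp4, Casp12 and Casp8, and 28.7% of all genes were without overlap in 1 direction or the other. The median log2 difference over all genes was -0.04 with all arrays and -0.06 without CP-Dox replicate 2. For the 3 inflammatory genes the medians were 0.88 and 1.38, and for the 4 apoptotic genes 0.16 and 0.14.

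**Figure D2:**
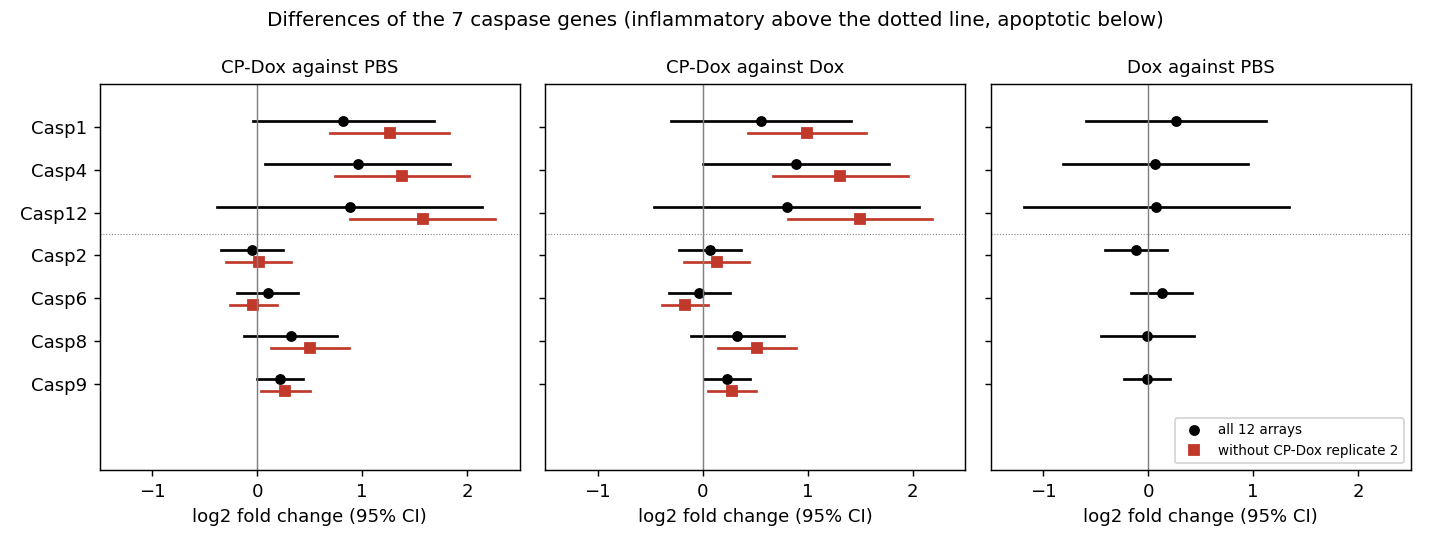
Log2 fold changes of the 7 caspase genes with 95% confidence intervals, with all 12 arrays (black) and without CP-Dox replicate 2 (red). Without that array the intervals of Casp1, Casp4 and Casp12 start at 0.70, 0.74 and 0.89 in CP-Dox against PBS, while those of Casp2 and Casp6 include 0 in both fits.

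The comparison of CP-Dox with Dox, the carrier-bound form beside the free drug, gave no call either. Form, carrier and any difference in dose cannot be told apart in it. None of the 7 genes passed (limma, adjusted p from 0.299 to 0.928), against 0.226% of all genes, and 0 of the 9 probe sets passed, against 0.191% of all probe sets. Casp4 differed by 0.89 ± 0.40, Casp12 by 0.80 ± 0.58 and Casp1 by 0.56 ± 0.39. Casp9 was the 1 gene of the 7 whose groups did not overlap, with a difference of 0.23 ± 0.10 (limma adjusted p = 0.299), where 9.63% of all genes had no overlap. Its other probe set overlapped between CP-Dox and Dox and differed by 0.04 ± 0.13. Casp8 differed by 0.33 ± 0.20, Casp2 by 0.07 ± 0.14 and Casp6 by -0.03 ± 0.13. Without CP-Dox replicate 2 the 3 inflammatory genes rose relative to Dox: Casp1 1.99-fold, Casp4 2.48-fold and Casp12 2.82-fold (limma adjusted p = 0.0381, 0.0243 and 0.0201), in a fit that called 9.28% of all genes. Both comparisons of CP-Dox share its tumours, so their values are not independent.

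In Dox against PBS no member stood out. None of the 7 genes and 9 probe sets passed (limma, genes from adjusted p = 0.995 to 0.998), none had an unadjusted p under 0.05, and none was without overlap. Among all genes, limma called 0 of 12393 (0%), with 558 at an unadjusted p under 0.05, and 3.84% were without overlap. No tool other than limma was run. The differences were 0.27 ± 0.39 for Casp1, 0.07 ± 0.40 for Casp4, 0.08 ± 0.58 for Casp12, -0.12 ± 0.14 for Casp2, 0.13 ± 0.13 for Casp6, -0.01 ± 0.20 for Casp8 and -0.01 ± 0.10 for Casp9. The intervals were wide for the inflammatory genes, -0.59 to 1.13 for Casp1 and -1.18 to 1.34 for Casp12, and both include a 2-fold higher level. For Casp9 the interval was -0.23 to 0.21.

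With all 12 arrays, Casp1, Casp4, Casp12, Casp6 and Casp8 had a larger SD in both drug groups than in PBS, a difference that was not tested. The SD of Casp1 was 0.88 in CP-Dox, 0.60 in Dox and 0.15 in PBS (n = 4 each), and that of Casp12 was 1.40, 0.73 and 0.22 in that order of groups. In the same order the SDs were 0.85, 0.67 and 0.23 for Casp4, 0.41, 0.31 and 0.15 for Casp8, and 0.28, 0.14 and 0.11 for Casp6. For Casp2 they were 0.18, 0.20 and 0.21, and for Casp9 0.12, 0.06 and 0.19, the largest in PBS for both. Without CP-Dox replicate 2, the CP-Dox SDs of Casp1, Casp4, Casp12 and Casp6 were 0.08, 0.14, 0.15 and 0.08, each below that of PBS. That of Casp8 was 0.23, still above PBS. Over the 12 arrays the SDs of Casp12, Casp4 and Casp1 were 0.93, 0.74 and 0.67, that of Casp8 was 0.32, and those of Casp2, Casp6 and Casp9 were 0.16 to 0.18. The median gene had an SD of 0.20.

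To set the inflammatory against the apoptotic genes within each tumour, every gene was expressed relative to its PBS mean and averaged within its group. The inflammatory mean was 1.46, -0.67, 1.40 and 1.35 in CP-Dox replicates 1 to 4, 0.58, -0.80, 0.18 and 0.59 in Dox, and -0.06, 0.05, -0.20 and 0.21 in PBS. The apoptotic mean was 0.16, 0.03, 0.12 and 0.28 in CP-Dox, -0.01, -0.19, 0.03 and 0.16 in Dox, and 0.11, 0.01, -0.13 and 0.01 in PBS. The inflammatory minus apoptotic difference was thus positive in CP-Dox replicates 1, 3 and 4, at 1.08 to 1.30, and negative in replicate 2, at -0.70. On average it was 0.74 ± 0.96 in CP-Dox, 0.14 ± 0.53 in Dox and 0.00 ± 0.15 in PBS (SD, n = 4 each), a description without a test.

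**Figure D3:**
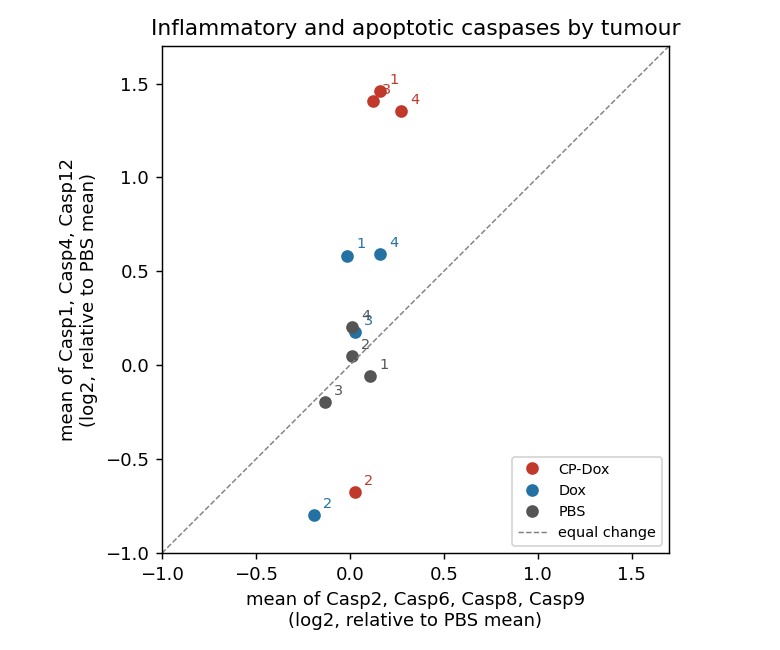
Mean of the 3 inflammatory caspase genes (vertical axis) against the mean of the 4 apoptotic caspase genes (horizontal axis) in each of the 12 tumours, in log2 units relative to the PBS mean; the dashed line marks equal change. The tumours spread from -0.80 to 1.46 vertically but only from -0.19 to 0.28 horizontally.

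The likeness of the members' patterns over the 12 arrays was measured by Pearson's r, as a description without a test, since the arrays share 3 treatments and 1 outlying tumour. Casp1, Casp4 and Casp12 had r of 0.93 to 0.97 with each other, and 0.95 to 0.97 over the 11 arrays without CP-Dox replicate 2. Casp8 had r of 0.84 to 0.92 with them, higher than with any apoptotic gene (at most 0.60). Casp6 had negative r with each of the other 6 genes, -0.59 to -0.20, and -0.36 to -0.14 without CP-Dox replicate 2.

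Among all other genes, the nearest in pattern to Casp1 were B3gnt8, a glycosyltransferase gene (r = 0.99), Trim21, which encodes a cytosolic antibody receptor (0.97), and Sectm1a (0.97). Nearest to Casp4 were Metrnl, which encodes a secreted meteorin-like protein (0.99), Insl6 (0.97) and Idnk (0.97). Nearest to Casp12 were Ada, the adenosine deaminase gene (0.98), Serpinb1b (0.97) and the apolipoprotein D gene Apod (0.97). Casp8 was closest to the chemokine gene Ccl7 (0.98), to Snx6 (0.96) and to Edem1 (0.96). The other apoptotic genes had less close partners: Mtpn, Ptpn5 and Gsto1 for Casp6 (0.92 to 0.93), Terf1, Nek6 and Fam83f for Casp2 (0.82 to 0.86), and Ddhd1, Cpne2 and Alas1 for Casp9 (0.86 to 0.87).

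Interferon-stimulated genes and T and NK cell markers were high and low in the same CP-Dox tumours as the inflammatory caspases. The mean of 14 interferon-stimulated genes, relative to PBS, was 1.56, -1.76, 1.58 and 1.50 in CP-Dox replicates 1 to 4, 0.57, -0.57, 0.10 and 0.73 in Dox, and -0.32, 0.68, -0.32 and -0.04 in PBS. It was thus high in the 3 tumours with high Casp1, Casp4 and Casp12 and lowest in CP-Dox replicate 2. The mean of 11 T and NK cell markers was 0.83, -1.52, 0.97 and 1.36 in CP-Dox, -0.38 to 0.82 in Dox and -0.57 to 0.51 in PBS, and that of 10 macrophage markers was 0.17, -0.55, 0.58 and 0.66 in CP-Dox, 0.14 to 0.38 in Dox and -0.19 to 0.09 in PBS. The mean of 9 neutrophil markers was 0.71, 0.04, 0.70 and 0.94 in CP-Dox, -0.08 to 0.69 in Dox and -0.08 to 0.08 in PBS. That mean does not describe the whole list, since only 5 of the 9 genes were higher in CP-Dox than in PBS. Their median difference was 0.01 with all arrays and 0.07 without CP-Dox replicate 2. In CP-Dox against PBS with all arrays, 0 of the 11 T and NK cell markers, 0 of the 10 macrophage markers and 1 of the 9 neutrophil markers passed. Among all genes 5.58% passed. The fit without CP-Dox replicate 2 called 19.1% of all genes. In it, 4 T and NK cell markers rose, 6 macrophage markers rose and 1 fell, and 4 neutrophil markers rose. The part of these cells in the caspase values was not tested.

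Keratinocyte markers (11 genes) were at 2.31 and 3.62 in CP-Dox replicates 1 and 3, and at -0.18 to 0.09 in the other 10 arrays. CP-Dox replicate 4, with keratinocyte markers at -0.18, had an inflammatory caspase mean of 1.35, close to the 1.46 and 1.40 of the tumours that held those markers. Leaving out CP-Dox replicates 1 and 3 left 2 unlike CP-Dox tumours, replicates 2 and 4, with inflammatory caspase means of -0.67 and 1.35. Averaged over these 2, Casp1, Casp4 and Casp12 were 0.36, 0.56 and 0.10 above PBS (limma adjusted p = 0.844, 0.745 and 0.978). Casp14, the caspase gene of cornifying skin and the 1 other caspase analysed here, was at 5.31, 4.95, 6.38 and 5.08 in CP-Dox replicates 1 to 4, at 4.75 to 5.29 in Dox and at 4.99 to 5.39 in PBS. It was highest in CP-Dox replicate 3, the tumour with the most keratinocyte signal, and differed by 0.26 ± 0.27 (limma adjusted p = 0.583). Endothelial markers (8 genes) were at 0.59 to 0.74 in CP-Dox, -0.02 to 0.37 in Dox and -0.32 to 0.17 in PBS, and fibroblast markers (10 genes) at 0.20 to 0.68, -0.25 to 0.28 and -0.18 to 0.12 in that order of groups. CP-Dox replicate 2 was not set apart in either, at 0.59 and 0.42. With all arrays, 3 of the 8 endothelial and 2 of the 10 fibroblast markers rose in CP-Dox against PBS, beside 5.58% called among all genes. In the fit without CP-Dox replicate 2, which called 19.1%, 3 of each list rose.

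**Figure D4:**
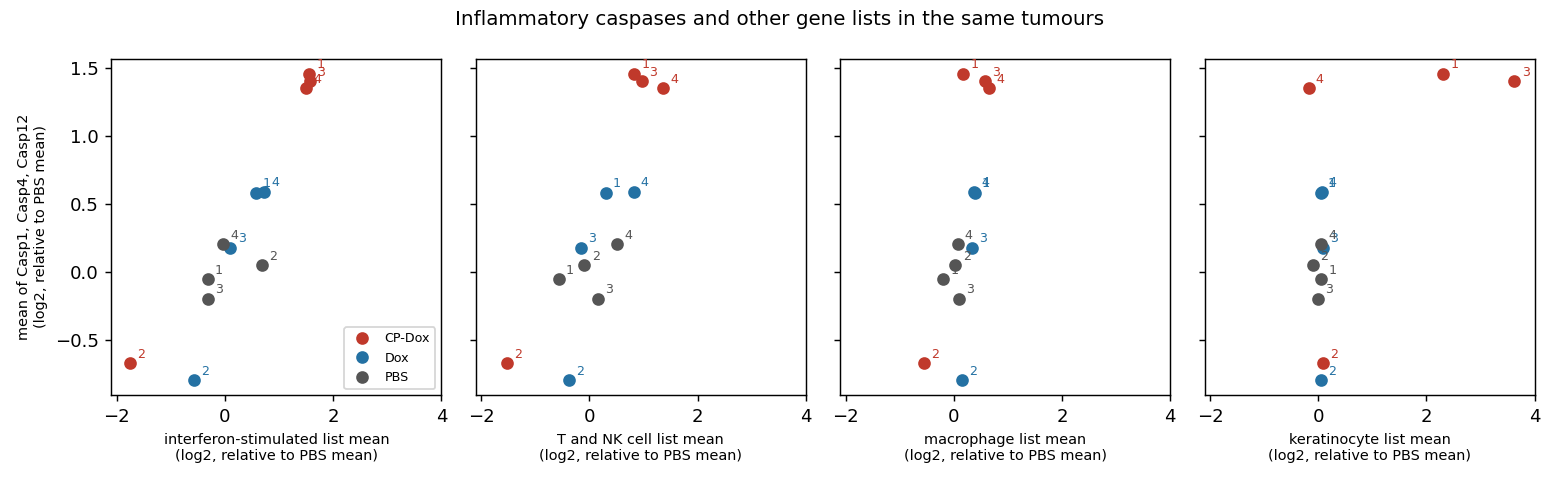
Mean of Casp1, Casp4 and Casp12 (vertical axis) against the mean of 4 other gene lists (horizontal axes) in each tumour, both in log2 units relative to the PBS mean. CP-Dox replicate 2 is lowest on the interferon, T and NK cell and macrophage axes. On the keratinocyte axis CP-Dox replicates 1, 3 and 4 are at 2.31, 3.62 and -0.18, with caspase means of 1.46, 1.40 and 1.35.

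Partners of the inflammatory caspases were read from gene lists, for which the shares of all genes called were again 5.58% with all arrays and 19.1% without CP-Dox replicate 2. Of 9 measured inflammasome sensors and adaptors, 0 passed in CP-Dox against PBS (median 0.18), and 4 rose without CP-Dox replicate 2 (median 0.28). Naip5 and Naip2, receptors that detect bacterial flagellin and secretion-system proteins, differed by 0.62 ± 0.27 and 0.52 ± 0.25 in the full set, and without that array their rises were 0.94 and 0.83. Nlrp6, a sensor known from gut epithelium, went the other way, at -0.28 ± 0.17. Pycard, which encodes the adaptor ASC and was picked after its values were seen, differed by 0.69 ± 0.59 with all arrays (limma adjusted p = 0.495). Pycard rose by 1.40 without CP-Dox replicate 2. The sensor genes Nlrp3, Aim2 and Mefv, also named after their values were seen, differed by 0.06 ± 0.14, 0.10 ± 0.21 and -0.002 ± 0.27 with all arrays and passed in neither fit. Of 12 cytokine and effector genes downstream, 0 passed with all arrays (median 0.37), and 4 rose and 1 fell without it (median 0.62).

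Il18bp, which encodes a secreted blocker of interleukin-18, was at 11.07, 6.89, 10.98 and 10.96 in CP-Dox replicates 1 to 4, 9.63, 8.12, 8.76 and 10.12 in Dox, and 8.16, 9.02, 8.14 and 8.44 in PBS. As for Casp1, replicate 2 was the lowest of both drug groups. The difference was 1.53 ± 0.82 with all arrays, and Il18bp rose by 2.56 without CP-Dox replicate 2. Il1r2, the decoy receptor of interleukin-1, differed by 0.60 ± 0.33 and rose by 0.95 without that array. Ninj1, which encodes the protein that ruptures membranes in lytic death, differed by 0.56 ± 0.22 and did not pass without it (0.69, limma adjusted p = 0.0513). Gsdme, a gasdermin gene named after its values were seen, was the 1 gene of this list that fell without CP-Dox replicate 2, by 0.82. With all arrays Gsdme differed by -0.39 ± 0.35 (limma adjusted p = 0.517).

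Partners of the apoptotic caspases gave 0 calls in the death receptor, apoptosome and inhibitor lists with all arrays, against 5.58% of all genes. Of 14 death receptor genes upstream of caspase-8 (median 0.27), 6 rose without CP-Dox replicate 2 (median 0.31). The fit without that array called 19.1% of all genes. Tnfsf10, which encodes the death ligand TRAIL, was at 7.01, 4.84, 7.05 and 7.10 in CP-Dox replicates 1 to 4, 5.85, 5.24, 5.61 and 5.93 in Dox, and 5.43, 5.32, 5.39 and 5.80 in PBS. It differed by 1.01 ± 0.42 and rose by 1.56 without that array. Tnfrsf1a, the main TNF receptor gene, differed by 0.22 ± 0.09 and rose by 0.31 without it. Cflar, which encodes the caspase-8 inhibitor c-FLIP, had its highest signal, 10.06, in CP-Dox replicate 2, with 9.33 to 9.71 in CP-Dox replicates 1, 3 and 4 and 8.79 to 9.52 in PBS.

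Of 10 apoptosome and PIDDosome genes (median -0.03), 1 rose without CP-Dox replicate 2, in a fit that called 19.1% of all genes. It was Apaf1, the scaffold on which caspase-9 is activated, at 0.47 ± 0.16 with all arrays and 0.59 without CP-Dox replicate 2. The anti-apoptotic gene Bcl2l1 and the protease gene Htra2 differed by 0.37 ± 0.18 and -0.22 ± 0.13 and passed in neither fit. Of 5 inhibitor of apoptosis genes (median 0.26), 2 rose without that array, again beside 19.1% of all genes called. Xiap, the direct inhibitor of caspase-9, was 0.24 ± 0.08 higher, with every CP-Dox tumour above every PBS tumour (10.37 to 10.49 against 10.12 to 10.32; limma adjusted p = 0.0887). Birc3 differed by 0.49 ± 0.18 and rose by 0.66 without CP-Dox replicate 2. Birc5, the survivin gene, which also serves mitosis, had a signal of 8.74 in CP-Dox replicate 2 and of 10.13 to 10.35 in its 3 group mates, below the 10.52 to 10.82 of PBS (-0.74 ± 0.32; limma adjusted p = 0.189). The Birc5 difference was -0.35 without that array (limma adjusted p = 0.179).

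Of 15 genes that encode known substrates of apoptotic caspases, 1 rose and 2 fell in CP-Dox against PBS with all arrays (median 0.09). Among all genes 5.58% were called in that fit. Gsn, which encodes the actin-severing protein gelsolin, rose by 0.60 ± 0.11 (limma adjusted p = 0.0118), with 12.60 to 12.90 in CP-Dox and 12.11 to 12.24 in PBS. Lmnb1, the lamin B1 gene, fell by 0.67 ± 0.14 (limma adjusted p = 0.0198), with 7.70 to 8.27 in CP-Dox and 8.51 to 8.96 in PBS. Parp1, which encodes a sensor of DNA breaks, fell by 0.49 ± 0.13 (limma adjusted p = 0.0474), with at most 9.51 in CP-Dox and at least 9.64 in PBS. Without CP-Dox replicate 2, 2 of the 15 genes rose and 2 fell, in a fit that called 19.1% of all genes. Gsn, Lmnb1 and Parp1 were among them, at 0.57, -0.54 and -0.38.

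Of the 14 interferon-stimulated genes, 0 passed with all arrays (median 0.59), and 13 rose without CP-Dox replicate 2 (median 1.55). The shares of all genes called in these fits were 5.58% and 19.1%. Ifit3, an antiviral gene, was at 12.39, 8.25, 12.36 and 12.01 in CP-Dox replicates 1 to 4, 10.20, 8.93, 10.06 and 10.68 in Dox, and 9.15, 10.52, 9.30 and 9.61 in PBS. Replicate 2 was again the lowest of both drug groups, and it was the highest of PBS. Mx1 differed by 1.53 ± 0.79 and Irf2, which encodes a factor of the interferon regulatory family, by 0.42 ± 0.26, and without that array both rose, by 2.50 and 0.71. In Dox against PBS and in CP-Dox against Dox, no gene of any of these lists passed with all arrays. Relative to Dox and without CP-Dox replicate 2, where 9.28% of all genes were called, 9 of 14 interferon-stimulated genes, 5 of 14 death receptor genes, 2 of 9 inflammasome genes and 1 of 5 inhibitor of apoptosis genes rose. In that fit 2 of 12 cytokine and effector genes rose and 1 fell, and 0 apoptosome or substrate genes passed.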

How the data were processed

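One array per tumour was measured, and the deposited table holds log2 signals per probe set. Per the submitters' processing notes the authors used RMA and Partek (versions and order of steps are not given in the sources used here). RMA corrects background, normalizes by quantiles and summarizes probes. No further normalization or signal filter was applied. Control probe sets (64) and those with several symbols (691) or none (1555) of the 22690 were left out. Per gene, the probe set with the highest mean over 12 arrays was kept, and a second fit used every probe set. Groups came from titles.

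A linear model with a mean per group was fitted with limma 3.58.1 in R 4.3.3, two-sided, with Benjamini-Hochberg adjustment over all genes or probe sets, and was tested on simulated data. Array number limits the precision. Named are all members, up to 3 genes of lowest p and any that passed per pathway list, and 3 nearest genes per member. Members and lists were chosen with earlier results of these data known. Alternatives covered normalization, probe set choice, variance model, arrays left out and pairing. Promoters came from RefSeq (GRCm38.p6). Figures used matplotlib 3.10.9.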

Additional observations from a re-analysis of the deposited data

Results flagged for a closer look

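Of 27 groups of 4 values (9 probe sets in 3 treatment groups), 6 held 1 tumour far from the other 3, with a gap beyond Dixon's critical value. Chance flags about 1 group in 20. The groups are not independent, since the flags of Casp1, Casp4 and both Casp12 probe sets in CP-Dox come from 1 tumour. The count of 6 is therefore not weighed against that rate. In CP-Dox replicate 2, Casp1 was at 9.70, with its 3 group mates at 11.42 to 11.55, Casp4 at 8.64, against 10.17 to 10.44, and the 2 probe sets of Casp12 at 7.87 and 8.01, against 10.49 to 10.76 and 10.41 to 10.70. In PBS, Casp12 (1449297_at) was at 9.41 in replicate 4, against 8.93 to 8.99, and Casp2 at 8.67 in replicate 3, against 9.05 to 9.12.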

How the results depend on the processing

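The count of caspase genes that passed was 0 in the 3 comparisons and stayed at 0 under another round of quantile normalization, median centring, removal of the 40% of genes with the weakest signal, other choices of probe set, limma-trend, a fit of the compared groups alone, and a stricter threshold of 0.01. It was also 0 in both CP-Dox comparisons without CP-Dox replicates 1 and 3. Array weights, which lower the weight of outlying arrays, gave 3 genes (Casp1, Casp4, Casp12) in CP-Dox against PBS and in CP-Dox against Dox, and 4 and 3 probe sets. Leaving out single arrays gave 0 to 3 genes and 0 to 4 probe sets in both CP-Dox comparisons, with the calls found only without CP-Dox replicate 2, and 0 in Dox against PBS. Leaving out a tumour that lies apart narrows the spread by construction, so these calls are no separate support. The inflammatory minus apoptotic difference of CP-Dox and PBS was 0.74, 1.22 without CP-Dox replicate 2 and 0.19 without replicates 1 and 3. Its size thus depended on which CP-Dox tumours were kept, and its SD over the 4 CP-Dox tumours was 0.96. Casp1, Casp4, Casp12, Casp8 and Casp9 kept their direction in all 19 alternatives of CP-Dox against PBS, and Casp2 and Casp6 in 17. With the replicate number as a block, 0 genes passed in each comparison (Casp4 in CP-Dox against PBS at 0.96, limma adjusted p = 0.0727). Deviations of same-numbered tumours correlated at 0.02 to 0.35 in CP-Dox against PBS and 0.02 to 0.51 in CP-Dox against Dox. In Dox against PBS they correlated at -0.31 to 0.29. The 0.51 was that of replicate 2 of CP-Dox and replicate 2 of Dox, and the fits without CP-Dox replicate 2 kept Dox replicate 2. Differently numbered tumours were not compared, so a shared effect of the replicate number was not tested. The titles name each as a mouse replicate, and the main fit does not take the numbers as pairs.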
